A study of Mus musculus with 9 samples.

Results

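The genes described here encode 10 surface proteins used to sort mouse blood stem and progenitor cells: Cd34, Slamf1, Cd48, Procr, Ly6a, Cd93, Cd27, Thy1, Esam and Emcn. They were taken by symbol from the array annotation, using the transcript cluster (a set of probes summed for 1 gene or locus) with the highest mean over the 9 arrays where a symbol had several. Of the 10 genes, 8 had a cluster with that symbol alone, out of 18795 symbols on the array. Cd27 was found only on a cluster that the annotation also gives to the microRNA gene Mir8113, so its values are those of the shared cluster and are kept out of the counts below. No cluster carried the symbol Ly6a, and Ly6a was not analysed here.

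Marrow was taken from 8-week C57BL/6 females 6 days after 150 mg/kg of 5-fluorouracil, a drug that kills dividing cells. The cells were sorted as lineage-negative, Sca-positive and Kit-positive, infected with a retrovirus carrying green fluorescent protein, and sorted again after 72 h in culture for those that fluoresced. The 3 groups of 3 arrays each were cells given GATA2 R396Q, cells given GATA2 wild type and cells given the empty vector (MIE). The same surface sort, drug treatment and fluorescence sort therefore applied to every group, and since no label ties the 3 samples of a group to separate mice or cultures, a p-value reflects just the spread among these samples, which may be technical. The labels call the tissue blood and the cell type HSC, while the protocol describes marrow.

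Blood stem cells have no single surface marker and are recognised by combinations. In mouse marrow, Slamf1 (CD150) on the surface together with an absence of Cd48 marks cells rich in long-term stem cells, and Procr, Esam and Emcn are further markers of that compartment. In marrow of untreated adults, Cd34 is absent from most long-term stem cells. It appears on the multipotent and myeloid progenitors that follow them, where Cd48, Cd27 and Cd93 are also found. The cells here came from drug-treated mice and were cultured, and whether these marker patterns hold in such cells was not tested. GATA2 is a zinc finger transcription factor needed by blood stem and progenitor cells.

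The promoters of Cd34, Slamf1 and Cd48 are shown because their signals moved most between groups, each in its own pattern, and because GATA factors bind the letters GATA. The windows are those of RefSeq on GRCm38.p6, each of 300 bases around a transcript start, on the plus strand of chromosome 1: chr1:194938571-194938870 for Cd34, chr1:171766882-171767181 for Slamf1 and chr1:171681742-171682041 for Cd48. Capitals mark GATA on either strand (GATA or its complement TATC).
Cd34: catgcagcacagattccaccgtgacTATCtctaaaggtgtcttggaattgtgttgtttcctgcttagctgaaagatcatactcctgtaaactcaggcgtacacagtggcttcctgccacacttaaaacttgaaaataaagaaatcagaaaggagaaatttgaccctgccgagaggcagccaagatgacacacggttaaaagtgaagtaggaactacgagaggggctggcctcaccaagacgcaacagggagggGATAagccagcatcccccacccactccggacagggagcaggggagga
Slamf1: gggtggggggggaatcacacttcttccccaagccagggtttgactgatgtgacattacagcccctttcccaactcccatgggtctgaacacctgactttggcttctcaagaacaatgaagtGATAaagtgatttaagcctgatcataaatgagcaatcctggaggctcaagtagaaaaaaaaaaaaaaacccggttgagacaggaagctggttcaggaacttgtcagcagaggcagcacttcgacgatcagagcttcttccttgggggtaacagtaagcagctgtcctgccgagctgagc
Cd48: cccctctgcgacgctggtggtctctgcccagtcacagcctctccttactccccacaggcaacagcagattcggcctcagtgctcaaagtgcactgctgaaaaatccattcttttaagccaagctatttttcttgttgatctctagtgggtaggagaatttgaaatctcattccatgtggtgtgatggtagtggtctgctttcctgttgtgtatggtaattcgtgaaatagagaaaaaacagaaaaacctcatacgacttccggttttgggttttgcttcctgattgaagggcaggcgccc
The Cd34 window held 2 GATA matches, at positions -225 and 3 counted from the start base. The Slamf1 window held 1 match, at position -129, and the Cd48 window held 0. The Cd34 and Slamf1 windows span the first base of the gene as RefSeq places it. The Cd48 window lies inside the gene, which begins at 171681245, so its count is for an internal start. GATA on either strand was present in 57.9% of 32851 windows of this length, and a longer form, which contains GATA and so overlaps it (A or T, then GATA, then A or G), in 29.8%. Cd34 and Slamf1 each held 1 of the longer form and Cd48 held 0. These matches describe letters and not binding sites. Windows were also found for Procr, Emcn and Cd27, while Cd93, Thy1 and Esam had none in the table. GATA matches numbered 0 for Procr, 1 for Emcn and 2 for Cd27, and matches of the longer form 0, 1 and 2.

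The deposited signals are log2 values from robust multiarray average (RMA), so a difference of 1 is a doubling. Array medians lay between 6.06 and 6.19. As a rough guide to background, chosen after the values were seen, 95% of 1225 olfactory receptor clusters had means below 5.34. Probes differ, so levels of different genes are not ranked against each other. Gata2 itself was 10.65, 10.72 and 10.53 with R396Q, 11.50, 11.24 and 10.94 with wild type, and 9.87, 9.67 and 9.65 with empty vector. Gata2 rose in both comparisons with empty vector (limma adjusted p = 0.0394 for R396Q and 0.00160 for wild type). Whether this cluster reads the cells' own transcript, the introduced one or both was not tested. The R396Q call was lost without R396Q 1, 2 or 3, wild type 2 or empty vector 1, 2 or 3 (adjusted p up to 0.155). Adjusted p-values are from limma with Benjamini-Hochberg adjustment over all 21072 clusters, or over the clusters left where a setting is named that removes some, and a call is an adjusted p under 0.05.

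Against empty vector, Slamf1 was higher with either form of GATA2, Cd34 and Cd93 were lower with wild type, and Cd48 was moved in opposite directions by the 2 forms. Between R396Q and empty vector, 2 of 8 members rose and 0 fell (4 of 8 at an unadjusted limma p under 0.05, which 12.1% of all clusters met), where 1.23% of all clusters were called, 0.66% higher and 0.569% lower. Between wild type and empty vector 1 of 8 rose and 3 fell (4 at an unadjusted p under 0.05, met by 22.1% of all clusters), where 8.99% of all clusters were called, 4.64% higher and 4.35% lower. Between R396Q and wild type 3 of 8 were higher and 0 lower (5 at an unadjusted p under 0.05, met by 17.7% of all clusters), where 5.75% were called, 2.67% higher and 3.08% lower. With the replicate number as a block, the first comparison gave 2 higher and 0 lower, against 3% of all clusters (1.66% higher and 1.34% lower). The second gave 1 higher and 3 lower with the block, against 17.4% (8% higher and 9.41% lower), and the last gave 4 higher and 0 lower, against 13.1% (7.1% higher and 5.95% lower). A test for any difference among the 3 groups called 5 of 8 members, against 8.31% of all clusters. The median absolute change of the 8 members was 0.48, 0.66 and 0.59 in the 3 comparisons, beside 0.09, 0.12 and 0.10 over all clusters. Groups did not overlap for 5, 4 and 5 of the 8 members, where 14.1%, 22.6% and 20.6% of all clusters did not. The first 2 comparisons share the empty vector arrays.

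**Figure D1:**
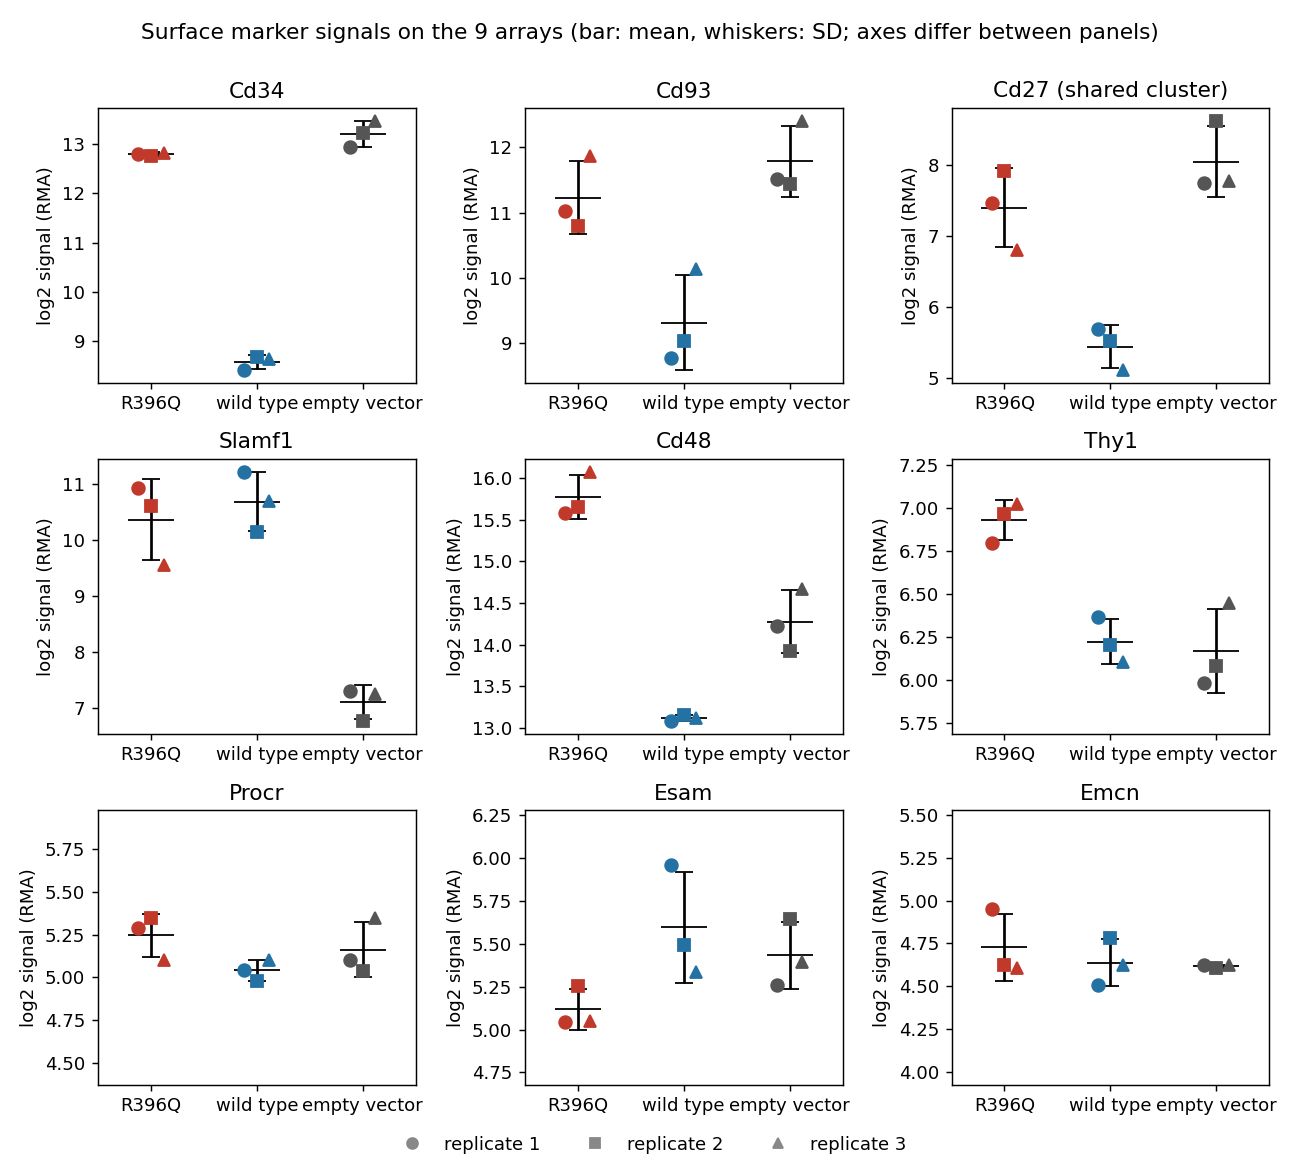
Log2 signal (RMA) of the 9 clusters on each array, with R396Q, wild type and empty vector from left to right, the mean as a bar and the SD as whiskers (n = 3). Axes differ between panels. Cd34 is low on all 3 wild type arrays (8.41 to 8.69), Slamf1 is low on all 3 empty vector arrays (6.76 to 7.31), and the Procr, Esam and Emcn points lie between 4.51 and 5.96 in every group.

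Cd34, a sialomucin of progenitors and blood vessels, gave the clearest separation. Its log2 signal was 12.80, 12.77 and 12.83 on the R396Q arrays, 8.41, 8.69 and 8.65 on the wild type arrays, and 12.94, 13.24 and 13.46 on the empty vector arrays. All wild type arrays lay at least 4 units below every other array, and the R396Q arrays lay just below the empty vector arrays without overlapping them. With wild type Cd34 was 24.8-fold below empty vector (-4.63, SE 0.13, adjusted p = 2.56e-05). R396Q was 18.6-fold above wild type (4.22 on the log2 scale, SE 0.13, adjusted p = 5.91e-05). The difference of R396Q from empty vector was -0.41 (SE 0.13, 95% interval -0.73 to -0.09) and did not pass the test over all clusters (adjusted p = 0.270). The order of the group means was wild type lowest, then R396Q, then empty vector, and the upper pair was not told apart by the test. Of 19 other settings, all called R396Q above wild type, and none called R396Q below empty vector (adjusted p from 0.0958 to 0.548).

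Cd93, a C-type lectin-like receptor of early progenitors, followed the same order of means with a larger spread. Its signal was 11.03, 10.79 and 11.86 with R396Q, 8.78, 9.04 and 10.14 with wild type, and 11.51, 11.44 and 12.40 with empty vector. Replicate 3 was the highest of its group in each case, and the wild type arrays did not overlap with either other group. With wild type Cd93 fell 5.52-fold against empty vector (-2.46, SE 0.47, adjusted p = 0.0210). That call was lost without wild type 1 (adjusted p = 0.0678) or 2 (0.0683), or without empty vector 1 (0.0530) or 3 (0.0641), and in a fit on those groups alone (0.0645). R396Q was 3.75-fold above wild type (1.91, SE 0.47), which missed the threshold (adjusted p = 0.0681). It passed in 6 of 19 other settings, among them with the replicate block (adjusted p = 0.00223), without wild type 3 (0.0419) and without the dimmest 50% of clusters (0.0263). Within replicate numbers 1, 2 and 3 that difference was 2.26, 1.75 and 1.72. R396Q and empty vector overlapped (-0.56, 95% interval without the block -1.66 to 0.55, adjusted p = 0.707). Within replicate numbers 1, 2 and 3 this difference was -0.48, -0.65 and -0.55, and with the block its SE was 0.12 and it was not called (adjusted p = 0.0884).

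The cluster shared by Cd27 and Mir8113 moved like Cd34 and Cd93. Cd27 encodes a receptor of the tumour necrosis factor family found on progenitors and lymphocytes. The cluster gave 7.47, 7.93 and 6.81 with R396Q, 5.69, 5.53 and 5.12 with wild type, and 7.74, 8.63 and 7.78 with empty vector. The wild type arrays were the lowest 3 of the 9, and the other groups overlapped. The signal fell 6.08-fold with wild type against empty vector (-2.60, SE 0.35, adjusted p = 0.00618). R396Q was 3.88-fold above wild type (adjusted p = 0.0238), a call lost without R396Q 1 or 2 or without wild type 1, 2 or 3 (adjusted p from 0.0580 to 0.0879), and in a fit on those groups alone (0.0575). With this cluster counted, a choice made after the data were seen, 5 of 9 were called between wild type and empty vector and 4 of 9 between R396Q and wild type. Of all clusters 8.99% and 5.75% were called there.

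Slamf1 is the receptor CD150, which binds itself on neighbouring cells and is also found on megakaryocyte precursors. Its signal was 10.93, 10.61 and 9.54 with R396Q, 11.21, 10.15 and 10.69 with wild type, and 7.31, 6.76 and 7.25 with empty vector. Every array with a GATA2 form was more than 2 units above every empty vector array. The R396Q and wild type arrays overlapped. Slamf1 rose 9.54-fold with R396Q (3.25, SE 0.41, adjusted p = 0.0188) and 11.9-fold with wild type (3.58, SE 0.41, adjusted p = 0.00339), both against empty vector. The R396Q call was lost without R396Q 1 (adjusted p = 0.0657) or 2 (0.0868), without empty vector 1 (0.0539) or 3 (0.0595), and in a fit on those 2 groups alone (0.0828). R396Q minus wild type was -0.32 with a 95% interval of -1.30 to 0.66, which reaches beyond a level with R396Q 2-fold below wild type.

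Cd48, a GPI-anchored ligand of Cd244a on most blood cells other than long-term stem cells, lies close to Slamf1 on chromosome 1. On GRCm38.p6 RefSeq places Cd48 at chr1:171681245-171705258 and Slamf1 at chr1:171767131-171801184. Cd48 gave 15.58, 15.65 and 16.08 with R396Q, 13.08, 13.15 and 13.12 with wild type, and 14.23, 13.92 and 14.67 with empty vector. No group overlapped another, with R396Q highest, empty vector between and wild type lowest. R396Q was 6.30-fold above wild type (2.65, SE 0.20, adjusted p = 0.00113), a call kept in all 19 other settings.

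Each of the 2 forms was also called against empty vector for Cd48, less firmly. It rose 2.83-fold with R396Q (1.50, SE 0.20, adjusted p = 0.0233). Leaving out 1 array ended that call for each of 7 arrays, empty vector 2 and 3 being the exceptions (adjusted p from 0.0551 to 0.0868), and in a fit on the 2 groups alone (0.134). Cd48 fell 2.23-fold with wild type (-1.16, SE 0.20, adjusted p = 0.0162), lost without wild type 1 (0.0571) or 3 (0.0507) or empty vector 1 (0.0514). Against empty vector, Slamf1 and Cd48 were thus both higher on the R396Q arrays, whereas on the wild type arrays Slamf1 was higher and Cd48 lower. Cd48 was still bright with wild type (13.08 to 13.15, where array medians were 6.06 to 6.19). The arrays measure RNA and not protein on the surface.

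**Figure D2:**
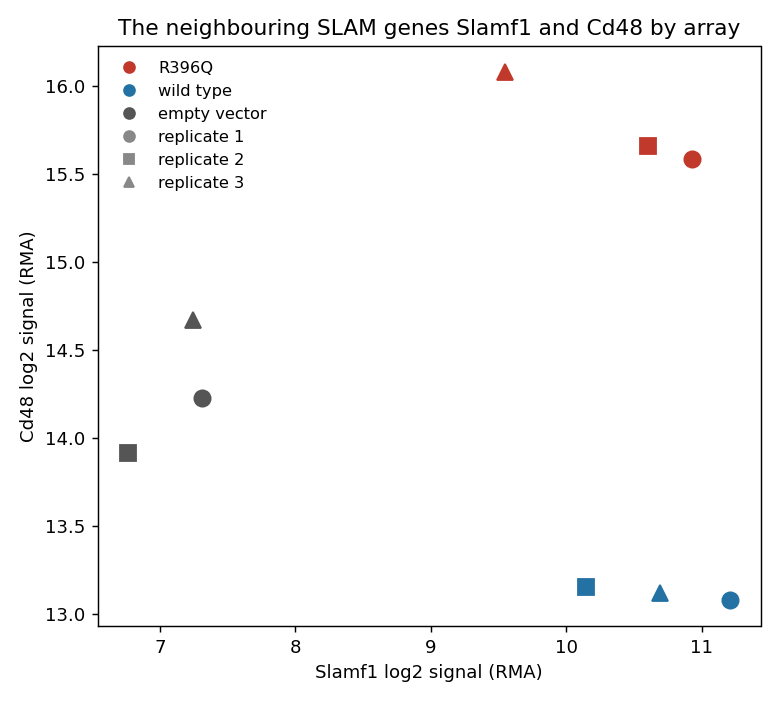
Log2 signal (RMA) of Cd48 against that of Slamf1, 1 point per array, coloured by group and shaped by replicate number. The 3 groups lie apart: R396Q at high Slamf1 and Cd48 of 15.58 to 16.08, wild type at high Slamf1 and Cd48 of 13.08 to 13.15, and empty vector at Slamf1 of 6.76 to 7.31 and Cd48 of 13.92 to 14.67, between the others.

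Thy1, a small GPI-anchored protein that is low on mouse stem cells and high on T cells, was near the array median. Its signal was 6.80, 6.97 and 7.03 with R396Q, 6.36, 6.20 and 6.10 with wild type, and 5.98, 6.08 and 6.44 with empty vector. The R396Q arrays were above all others, and the other groups overlapped. R396Q was 1.63-fold above wild type (0.71, SE 0.13, adjusted p = 0.0280), a call lost without any 1 R396Q or wild type array (adjusted p from 0.0514 to 0.0998). Against empty vector it was 1.70-fold higher (0.76, SE 0.13), which missed the threshold (adjusted p = 0.0537) and passed in 7 of 19 other settings, among them without empty vector 3 (0.0269) and without the dimmest 50% of clusters (0.0327).

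The other stem cell markers were dim in every group. Procr, the endothelial protein C receptor (CD201), gave 5.29, 5.34 and 5.10 with R396Q, 5.04, 4.98 and 5.10 with wild type, and 5.10, 5.04 and 5.34 with empty vector. Esam, a junction adhesion molecule of endothelium and stem cells, gave 5.04, 5.26 and 5.05 with R396Q, 5.96, 5.49 and 5.34 with wild type, and 5.26, 5.65 and 5.39 with empty vector. Emcn (endomucin), a sialomucin, gave 4.95, 4.62 and 4.61 with R396Q, 4.51, 4.78 and 4.62 with wild type, and 4.62, 4.61 and 4.62 with empty vector. The 3 genes were below the array median on all 9 arrays, and the means of Procr and Emcn lay below the olfactory receptor guide of 5.34 in each group.

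None of Procr, Esam and Emcn was called in any of the 3 comparisons. The nearest was Esam, lower with R396Q than with wild type by 0.48 (95% interval -0.89 to -0.06, unadjusted p = 0.0293, adjusted p = 0.210). Procr held 7 distinct values over the 9 arrays and Emcn 6, so exact ties were common. Signals this close to the guide limit what could be detected, and a dim cluster does not show that a transcript was absent. Other stem and progenitor markers differed widely in the empty vector cells. Means there were 13.21 for Cd34, 12.27 for Kit and 14.55 for Adgrg1. Of the 26 other surface genes described below, 2 had means under the guide there, Jam3 (4.55) and Neo1 (4.83). Since probes differ, these values do not rank the genes.

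**Figure D3:**
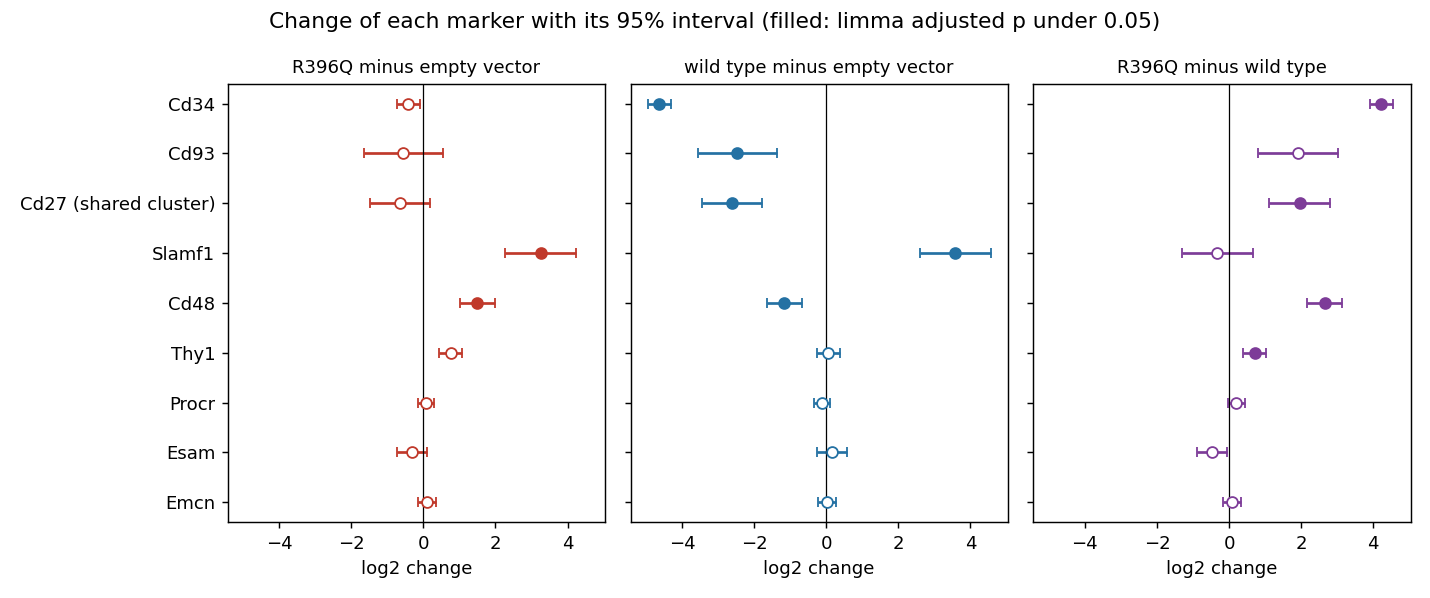
Log2 change of each cluster with its 95% interval from limma, for R396Q minus empty vector, wild type minus empty vector and R396Q minus wild type (n = 3 per group), filled where the adjusted p was under 0.05. Cd34 stands at -4.63 for wild type and -0.41 for R396Q against empty vector, Slamf1 at 3.58 and 3.25 is high in both, and Cd48 lies on opposite sides of 0.

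Genes with the most similar profile were sought among 8467 brighter clusters with 1 symbol by Pearson r over the 9 arrays, as a description with no test, since the 3 groups set most of each r. Nearest to Cd34 were Arhgef6 (r = 0.995), Parp8 (0.989) and Eml4 (0.986). Nearest to Slamf1 were P2rx1, an ATP-gated channel (0.983), Hgf (0.975) and the lipoxygenase Alox15 (0.966). Nearest to Cd48 were Zfp217 (0.981), Cst7 (0.980) and Pigx (0.976). Nearest to Cd93 were Epb41l2 (0.991), Cluh (0.984) and Nnt (0.983), and nearest to Thy1 were St14 (0.959), Exoc3l (0.950) and Gnai3 (0.945). For the shared Cd27 cluster they were N4bp2l1 (0.976), Myo5a (0.971) and Bmpr2 (0.966), among 8468.

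A list of 29 other surface genes of stem and progenitor cells held 26 with a cluster of their own. In R396Q cells 3 rose and 3 fell against empty vector, where 1.23% of all clusters were called. In wild type cells 7 rose and 6 fell, where 8.99% were called. R396Q was higher than wild type for 5 and lower for 3, where 5.75% were called. With the block the counts were 4 and 3, 8 and 6, and 5 and 5, against 3%, 17.4% and 13.1% of all clusters. The median change was 0.17, 0.02 and 0.18 in these comparisons, beside -0.01, -0.01 and 0.00 over all clusters. The list shared no single direction: it spread from platelet integrin genes that rose to Kit and Ptprc, which fell.

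Kit, the stem cell factor receptor by which the cells had been sorted, fell in both. It was 10.58, 10.32 and 10.50 with R396Q, 9.50, 9.42 and 9.46 with wild type, and 12.22, 12.23 and 12.38 with empty vector. No group overlapped another, and the falls were 3.50-fold with R396Q (adjusted p = 0.000460) and 7.02-fold with wild type (adjusted p = 2.19e-05). Ptprc (CD45), the phosphatase of nearly all white blood cells, followed the same order, with falls of 1.93-fold with R396Q (adjusted p = 0.00394) and 3.31-fold with wild type (adjusted p = 0.000121).

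Adgrg1 (GPR56), an adhesion receptor of stem cells, was 16.30, 16.28 and 16.51 with R396Q, 15.24, 15.43 and 15.41 with wild type, and 14.27, 14.74 and 14.63 with empty vector. It rose 3.52-fold with R396Q (adjusted p = 0.00271) and 1.76-fold with wild type (adjusted p = 0.0113), where the wild type call was lost with quantile normalization (0.0550), and R396Q was 2.00-fold above wild type (adjusted p = 0.00731). Itga2b (CD41), an integrin of platelets and early progenitors, rose 6.76-fold with wild type (adjusted p = 0.000848). With R396Q it was 2.35-fold higher, which missed the threshold (adjusted p = 0.0606) and passed with the block (0.0358).

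Pecam1 (CD31), an adhesion molecule of endothelium, platelets and leukocytes, was 11.85, 11.71 and 11.55 with R396Q, 10.30, 10.47 and 9.88 with wild type, and 10.45, 10.05 and 10.44 with empty vector. It rose 2.62-fold with R396Q against empty vector (adjusted p = 0.0188), a call lost without R396Q 1, 2 or 3 or empty vector 1 or 3 (adjusted p up to 0.0876) or in a fit on the 2 groups alone (0.0531), and was 2.80-fold above wild type (adjusted p = 0.00541). Alcam, Itga6 and Cd9 were chosen after their values were seen. Alcam fell and Itga6 rose in both comparisons with empty vector. The R396Q calls of Alcam and Itga6 were lost with the block (adjusted p = 0.0655 and 0.0667) and when 1 array was left out, for 8 of the 9 arrays, the exception being wild type 2 for Alcam (up to 0.109) and empty vector 3 for Itga6 (up to 0.154). These R396Q calls were also lost in a fit on the 2 groups alone (0.0891 for Alcam and 0.180 for Itga6). That of Itga6 was lost as well with trend and robust options (0.0525) and with quantile normalization (0.0697). Cd9 rose 4.29-fold with wild type (adjusted p = 0.00280) and R396Q lay 3.08-fold below wild type (adjusted p = 0.0101).

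**Figure D4:**
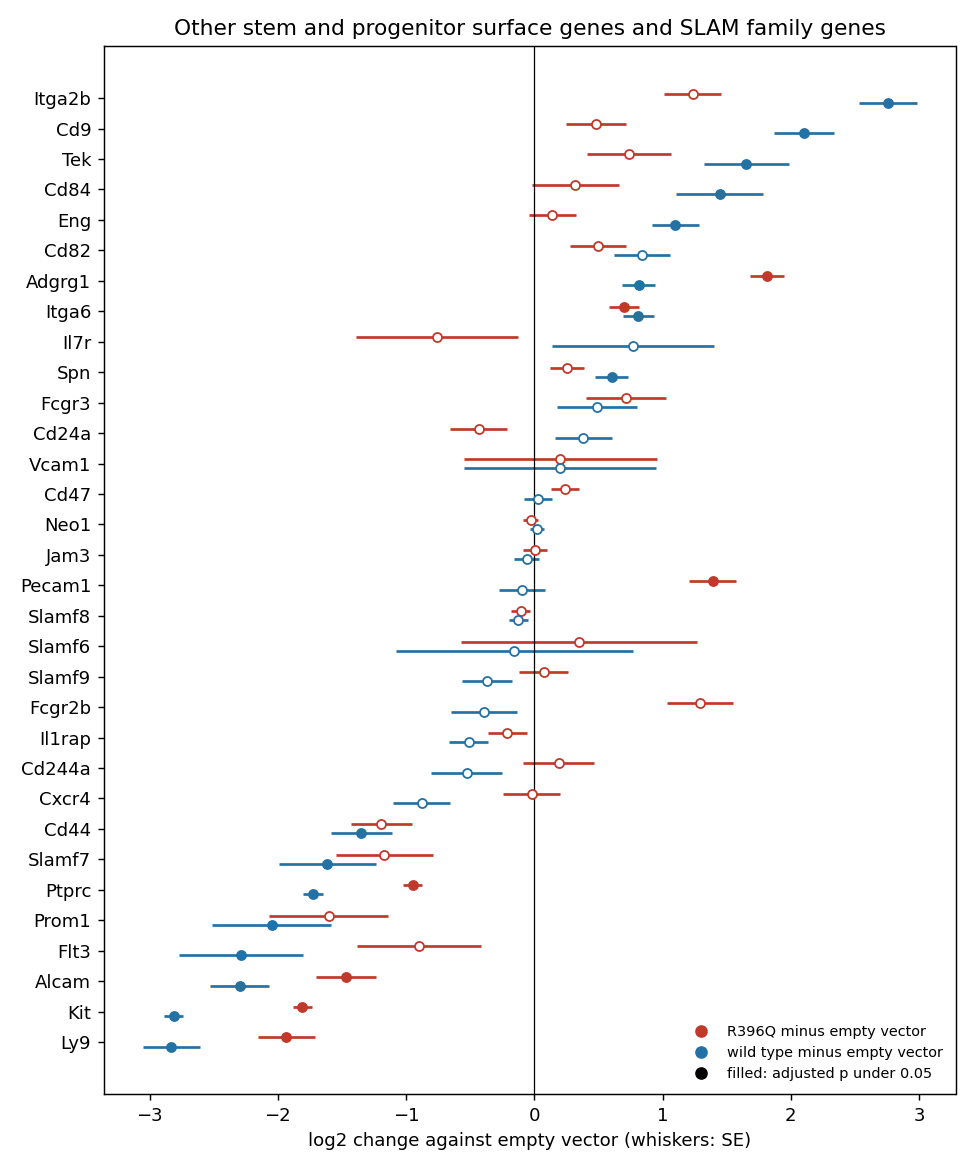
Log2 change against empty vector (whiskers are SE, n = 3 per group) of 32 stem and progenitor surface genes and SLAM family genes, R396Q above wild type in each row and rows ordered by the wild type change, filled where the adjusted p was under 0.05. Kit and Ly9 lie lowest in wild type (-2.81 and -2.83) and lie at -1.81 and -1.93 in R396Q, while Pecam1 is raised in R396Q alone among the filled points (1.39).

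Of 7 other SLAM family genes, 0 rose and 1 fell with R396Q against empty vector, and 1 rose and 2 fell with wild type. In these comparisons 1.23% and 8.99% of all clusters were called. Ly9 (CD229) was 6.97, 6.83 and 6.98 with R396Q, 6.14, 5.88 and 6.06 with wild type, and 9.31, 8.34 and 8.92 with empty vector, so both forms lay below the control without overlap. It fell 3.82-fold with R396Q (adjusted p = 0.0153, lost without R396Q 1, 2 or 3 or empty vector 3, up to 0.0762, and 0.0906 in a fit on the 2 groups alone) and 7.11-fold with wild type (adjusted p = 0.000780). Between R396Q and wild type 0 of the 7 were called by limma (3 at an unadjusted p under 0.05, met by 17.7% of all clusters), and 1 with the block, Ly9 (adjusted p = 0.0277).

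With wild type, Cd84 rose 2.72-fold (adjusted p = 0.0448) and Slamf7 fell 3.06-fold (adjusted p = 0.0459), each lost when 1 array was left out, for 7 of the 9. The exceptions were empty vector 1 and 2 for Cd84 (otherwise adjusted p up to 0.130) and R396Q 1 and 2 for Slamf7 (up to 0.128). In a fit on the 2 groups alone Cd84 was not called (0.147). Cd244a, the partner of Cd48, gave 10.16, 10.03 and 10.55 with R396Q, 9.54, 9.01 and 10.03 with wild type, and 10.12, 10.27 and 9.78 with empty vector. All 3 pairs of groups overlapped, and Cd244a, chosen after its values were seen, was not called in any comparison (adjusted p of 0.235 or above).

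Of 5 other sialomucins and mucin-like genes, 1 rose and 1 fell with wild type against empty vector (2 and 2 with the block). There 8.99% of all clusters were called, and 17.4% with the block. Cd164 fell 1.59-fold (adjusted p = 0.0147), lost in a fit on those 2 groups alone (0.0733), and Spn (CD43) rose 1.52-fold (adjusted p = 0.0326), lost without R396Q 3, wild type 1 or 3 or empty vector 2 or 3 (up to 0.0993) or in a fit on the 2 groups alone (0.0726). Podxl, the podocalyxin gene most closely related to Cd34, was opposite to it: 7.20, 6.91 and 8.55 with R396Q, 10.78, 10.89 and 12.49 with wild type, and 6.99, 8.27 and 9.40 with empty vector. The wild type arrays were the highest 3. R396Q was 14.2-fold below wild type (adjusted p = 0.0360), lost without any 1 R396Q or wild type array or empty vector 2 (up to 0.125) or in a fit on the 2 groups alone (0.0621). Podxl in wild type against empty vector missed the threshold (adjusted p = 0.0518) and passed with the block (0.00400).

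Of 3 relatives of Cd93, 1 rose and 0 fell with wild type against empty vector, where 8.99% of all clusters were called. R396Q was higher than wild type for 0 and lower for 1, where 5.75% were called. Each time this was Cd248, which rose 2.67-fold with wild type (adjusted p = 0.00884). Cd248 lay 2.66-fold lower with R396Q than in wild type cells (adjusted p = 0.0123, lost without R396Q 1, 0.0514, and in a fit on the 2 groups alone, 0.0527). Cd93 itself moved the other way in these comparisons, but was not called between R396Q and wild type (adjusted p = 0.0681). Among 6 junction adhesion genes related to Esam, 2 rose with wild type against empty vector, where 4.64% of all clusters rose. Jam2 gave 4.31, 4.43 and 4.28 with R396Q, 5.99, 5.68 and 5.52 with wild type, and 4.66, 4.66 and 4.56 with empty vector (2.14-fold against empty vector, adjusted p = 0.00217), close to the background guide. F11r rose 2.89-fold (adjusted p = 0.0454), lost when 1 array was left out, for 8 of the 9, the exception being wild type 2 (up to 0.130), and in a fit on the 2 groups alone (0.105).

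Of 7 other genes of the protein C pathway, the thrombin receptor genes F2r and F2rl2 rose with wild type, 6.79-fold (adjusted p = 0.00631) and 3.44-fold (adjusted p = 0.00986). With wild type against empty vector 4.64% of all clusters rose and 4.35% fell. For R396Q against empty vector F2r was 2.89-fold higher, which missed the threshold (adjusted p = 0.140) and passed it with the block (0.00185). Of 10 genes around Cd27, the tumour necrosis factor receptors Tnfrsf1a and Tnfrsf1b fell with wild type, 4.67-fold (adjusted p = 0.00224) and 3.80-fold (adjusted p = 0.0252, lost without wild type 2 or 3 or empty vector 1 or 3, up to 0.0789). Cd70, the ligand of Cd27 and chosen after its values were seen, gave means of 3.42 with R396Q, 3.39 with wild type and 3.41 with empty vector. Of 13 relatives of Ly6a in the Ly6 family, 1 rose with wild type, Ly6g5b (5.27-fold, adjusted p = 0.0334), lost without R396Q 1, 2 or 3, wild type 3 or empty vector 1, 2 or 3 (up to 0.104) or in a fit on the 2 groups alone (0.111). With the block 1 rose and 2 fell, where 8% of all clusters rose and 9.41% fell. Those that fell were the near-identical neighbours Ly6c1 and Ly6c2, chosen after their values were seen. Ly6c2 gave 15.99, 15.20 and 12.63 with R396Q, 15.17, 11.10 and 8.80 with wild type, and 17.28, 16.26 and 15.38 with empty vector. Its wild type arrays spread widely and lay below the empty vector arrays (24.5-fold, adjusted p = 0.160, and 0.0282 with the block). Ly6c1 was 3.18-fold lower with wild type (adjusted p = 0.223, and 0.0131 with the block).

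The samples are sorted cells in bulk, so fewer cells of a type and less RNA per cell cannot be told apart. Markers of maturing blood lineages moved with the wild type results above. Of 15 erythroid markers 12 rose and 0 fell with wild type against empty vector, and the mean log2 signal over the list was 6.35 to 6.56 on the R396Q arrays, 8.70 to 9.59 on the wild type arrays and 6.29 to 6.46 on the empty vector arrays. Of 13 megakaryocyte markers 9 rose (list means of 8.18 to 9.15, 10.4 to 11.2 and 8.13 to 8.81, in the same order), and of 15 mast cell and basophil markers 9 rose (9.22 to 9.86, 10.6 to 11.8 and 8.19 to 9.41). Of 20 neutrophil and monocyte markers 9 fell (9.24 to 11.2, 7.14 to 9.06 and 10.7 to 12.5). With wild type against empty vector 4.64% of all clusters rose and 4.35% fell. With R396Q against empty vector 0, 0 and 1 of these first lists rose and 2 of the last fell (0, 4, 6 and 7 at an unadjusted p under 0.05, met by 12.1% of all clusters). Of all clusters 0.66% rose and 0.569% fell in that comparison. The 1 mast cell and basophil marker that rose with R396Q was Gata2, the transduced gene. It was also among the 9 that rose with wild type. With the block, 12 erythroid, 10 megakaryocyte and 10 mast cell and basophil markers rose and 15 neutrophil and monocyte markers fell with wild type against empty vector. There 8% of all clusters rose and 9.41% fell. For R396Q against empty vector the block gave 0, 2 and 3 that rose and 4 that fell, where 1.66% of all clusters rose and 1.34% fell. With the block Gata2 was again among the mast cell and basophil markers that rose, with either form. The part of these lineages in the marker results was not tested.

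Lymphoid and endothelial cells also carry several of these surface proteins. Of 15 lymphoid markers 0 were called by limma in any comparison (0, 0 and 2 at an unadjusted p under 0.05, met by 12.1%, 22.1% and 17.7% of all clusters, and 0, 0 and 2 with the block), and 9, 10 and 9 of the 15 had group means below 5.34 with R396Q, wild type and empty vector. The block called 3%, 17.4% and 13.1% of all clusters in these comparisons. The list mean was 5.00 to 5.79 with R396Q, 5.07 to 5.47 with wild type and 5.15 to 5.60 with empty vector. Not all lymphoid markers were dim: Cd79b, chosen after its values were seen, had means of 7.73 with R396Q, 7.04 with wild type and 7.63 with empty vector.

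Of 14 endothelial markers 1 rose with R396Q against empty vector, 2 rose and 2 fell with wild type against empty vector, and R396Q was higher than wild type for 2 and lower for 1, with the same counts under the block. In these comparisons 1.23%, 8.99% and 5.75% of all clusters were called (3%, 17.4% and 13.1% with the block). Some lists overlap, so their counts are not separate. For example, the endothelial markers Pecam1 and Tek are also among the other surface genes, and Vwf is also on the megakaryocyte list. Itga2b is on the megakaryocyte list and among the other surface genes. Vwf, also a megakaryocyte gene, had means of 5.99 with R396Q, 9.73 with wild type and 6.14 with empty vector (3.59 higher on the log2 scale with wild type than with empty vector, adjusted p = 0.000151). Erg, a transcription factor also of blood stem cells, had means of 9.80, 7.59 and 9.21 (3.06-fold lower with wild type than with empty vector, adjusted p = 0.00139). Group means were below 5.34 for 8, 9 and 8 of the 14 with R396Q, wild type and empty vector, among them the defining endothelial gene Cdh5 (4.33, 4.38 and 4.46), chosen after its values were seen. The endothelial list mean was 5.67 to 5.85 with R396Q, 5.79 to 5.90 with wild type and 5.62 to 5.67 with empty vector. The part of either cell type in the marker results was not tested.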

How the data were processed

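Per the submitters' processing notes, the authors used RMA (robust multiarray average) and Affymetrix Expression Console, and the deposited values are log2 signals, 1 for each transcript cluster on each array. All 9 columns were used, for 21072 clusters. Hybridization was to Mouse Exon 1.0 ST arrays, per the labels, and no source used here gives a genome build for the clusters, so positions in the text are RefSeq's. Of the clusters, 18992 had 1 symbol, 1390 several and 690 none. Gene identifiers of 18302 were matched to a RefSeq gene table, which updated 421 symbols.

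Tests used limma 3.58.1 under R 4.3.3, with 1 mean per group over 9 arrays and moderated variances (residual degrees of freedom 6, prior 0.956; 2-sided), with Benjamini-Hochberg adjustment over all clusters within each comparison and no filter on low signal. Tied values were kept: 4412 clusters held fewer than 6 distinct values. The members and lists were chosen with earlier results of these data known. The lists come from general knowledge and are described by counts and medians. Named genes were the members, Gata2, Kit and, per list, up to 4 called genes with the smallest p over the 3 groups, of which the text prints those that bear on the markers, and genes of similar profile needed 1 symbol, at least 6 distinct values and a mean above the median cluster.

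Deviations from group means correlated at 0.451 to 0.693 in the 9 pairs of the same replicate number and -0.537 to -0.0900 in the other 18, so the number was also used as a block. Deviations cancel within a group, so positive values in the 9 pairs push the other 18 down. The 18 are therefore not separate support for pairing. Alternatives were the block, a fit on the compared groups alone, trend and robust options, array weights, median subtraction, quantile normalization, a floor that removed the dimmest 30% or 50% of clusters, averaging the clusters that share a symbol, and dropping each array in turn. A minimum of 6 distinct values and counting the shared Cd27 cluster were chosen after seeing the data. The number of arrays limits the precision.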

Additional observations from a re-analysis of the deposited data

How the results depend on the processing

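The replicate block gave 632, 3667 and 2750 called clusters for R396Q against empty vector, wild type against empty vector and R396Q against wild type, in place of 259, 1894 and 1211, and among members it changed 1 call, that of Cd93 in R396Q against wild type, and no other. Fits on the compared groups alone called 94, 1026 and 772 clusters, and 0 members between R396Q and empty vector (4 at an unadjusted p under 0.05 in the fit on all arrays). Without each array in turn the called clusters were 85 to 304, 1285 to 1724 and 650 to 1153, the called members 0 to 2, 2 to 4 and 2 to 3, the called genes of the other surface list 3 to 5, 8 to 12 and 6 to 8, and the members with any difference among groups, 5 of 8 with all arrays, 3 to 4. The values that changed sign were not called in any setting. Emcn in wild type against empty vector was -0.0038 after median subtraction. Without each array in turn Emcn ranged from -0.0030 to 0.17 for R396Q against empty vector, from -0.051 to 0.086 for wild type against empty vector and from -0.024 to 0.16 for R396Q against wild type. Slamf1 in R396Q against wild type ranged from -0.61 to 0.085, and in wild type against empty vector Thy1 ranged from -0.040 to 0.19 and Esam from -0.020 to 0.29. Median subtraction and quantile normalization moved the median of all clusters by less than 0.1. Where a call was lost the cause was not tested.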
